A study of Homo sapiens with 6 samples.

Results

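The thioredoxin and peroxiredoxin genes described here are TXN, TXN2, TXNRD1, TXNRD2, SRXN1, PRDX1, PRDX2, PRDX3, PRDX5 and PRDX6. They were chosen by symbol, and all 10 were among the 16953 genes of the authors' deposited table. By the usual site of the protein, 6 are cytosolic (TXN, TXNRD1, SRXN1, PRDX1, PRDX2 and PRDX6) and 3 mitochondrial (TXN2, TXNRD2 and PRDX3). PRDX5, which is found in mitochondria, peroxisomes and cytosol, was kept apart.

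The study treated H1048 cells, a wild-type human small cell lung cancer line, with ISP-I (isovalerylspiramycin I, a macrolide) at 10 µM for 48 h in 3 samples, or with DMSO, the solvent, for 48 h in 3 samples. Total RNA was sequenced, and the series' title names reactive oxygen species among the effects under study. The authors' deposited table compares a set of 3 libraries called D, E and F with a set of 3 called A, B and C. No source used here states which set received ISP-I, so every difference below is that of libraries D to F relative to libraries A to C, with no treatment assigned to either. Values of single libraries were not used, because the letters match no sample's labels. Levels, spread between replicates and sequencing depth are therefore not given. In bulk RNA, a change in RNA per cell and a change in the mix of cells cannot be told apart.

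Peroxiredoxins are abundant enzymes that reduce hydrogen peroxide and organic peroxides through a reactive cysteine. In most of them the oxidised cysteine is restored by thioredoxin, which a selenium-containing thioredoxin reductase recharges with electrons from NADPH. Cytosol and mitochondria hold separate sets of these proteins: TXN and TXNRD1 serve the cytosol, TXN2 and TXNRD2 the mitochondrial matrix. TXNRD1 and SRXN1 are well-known targets of NRF2, a transcription factor that binds antioxidant response elements.

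The bases before the start of TXNRD1 and of PRDX3 are shown because these genes had the smallest p-values among the members called higher and among those called lower. Both are RefSeq promoter sequences of GRCh38.p14, 5′ to 3′, cut to the bases outside every exon of GENCODE 29. Capitals mark a match to TGACNNNGC, the core of the antioxidant response element, and PRDX3 has none.
TXNRD1, chr12:104215529-104215778, plus strand: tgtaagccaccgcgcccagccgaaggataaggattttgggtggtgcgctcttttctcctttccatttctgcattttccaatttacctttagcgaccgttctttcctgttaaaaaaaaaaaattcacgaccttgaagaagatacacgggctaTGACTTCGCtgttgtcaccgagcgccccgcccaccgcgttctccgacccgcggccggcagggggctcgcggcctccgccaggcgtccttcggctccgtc
PRDX3, chr10:119178834-119179062, minus strand: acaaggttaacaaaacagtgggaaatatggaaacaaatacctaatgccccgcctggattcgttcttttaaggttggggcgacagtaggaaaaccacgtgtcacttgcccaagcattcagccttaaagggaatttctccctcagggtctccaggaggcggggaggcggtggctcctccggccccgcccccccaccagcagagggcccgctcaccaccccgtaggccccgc

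Of the 10 members, libraries D to F had higher values for 3 (TXNRD1, TXNRD2 and SRXN1) and lower values for 5 (PRDX2, PRDX3, PRDX5, PRDX6 and TXN2) at an adjusted p under 0.05 in the authors' deposited table. TXN and PRDX1 did not pass. Across the 15976 genes with an adjusted p, 29.7% were higher and 27.9% lower, so 57.6% passed in one direction or the other. With so many genes called, a call on a single member is common in this comparison. The median log2 fold change was -0.16 over the members, against 0.06 over all genes. The share of members higher was close to that of all tested genes. Those higher were the reductases TXNRD1 and TXNRD2 and the sulfiredoxin, a grouping by role that was seen after the values, has no test, and does not extend to the relatives TXNRD3 (-0.59, lower) and PRDX4 (0.26, higher).

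**Figure D1:**
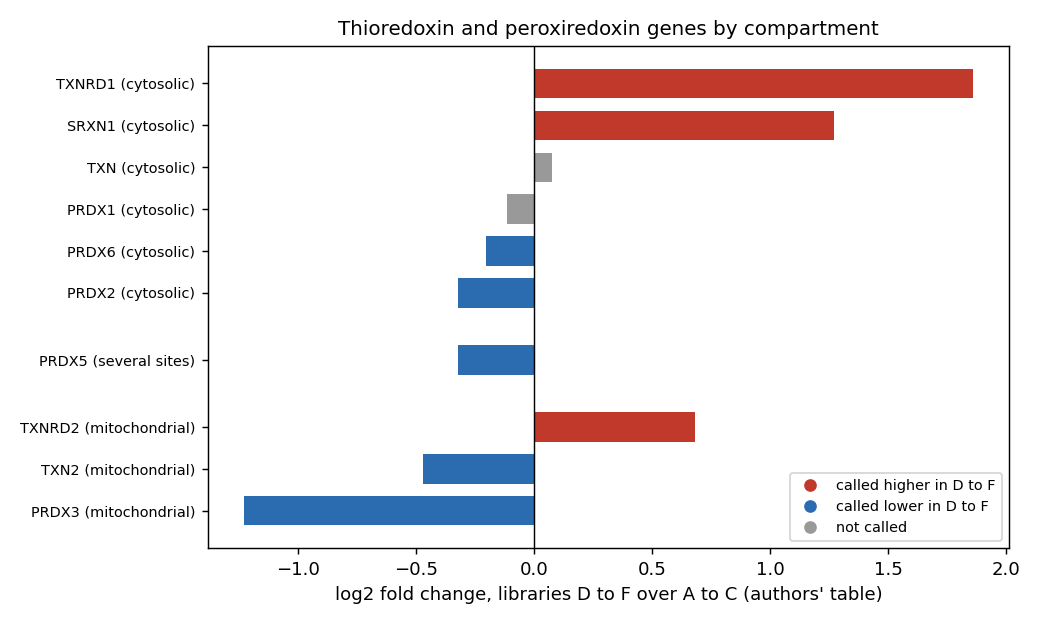
Each bar is the log2 fold change of 1 member, libraries D to F over A to C, from the authors' deposited table, grouped by the compartment of the protein and coloured by the call at an adjusted p under 0.05. The bars reach from -1.23 for PRDX3 to 1.86 for TXNRD1, and in the cytosolic and in the mitochondrial group the reductase is the highest.

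TXNRD1 encodes the cytosolic thioredoxin reductase (GRCh38, chromosome 12, 104215779 to 104350305). It was 3.62-fold higher in libraries D to F, a log2 fold change of 1.86 with an adjusted p of 1.77e-118 in the authors' deposited table. By p-value it stood at rank 83 of the 15976 genes. Its fold change was above that of 90.4% of them, so TXNRD1 stood apart more by its small p than by its size. EID3, a gene on the same strand inside the TXNRD1 locus (104303739 to 104305205), was also higher, with a log2 fold change of 3.68 (adjusted p = 3.58e-09 in the authors' deposited table). Whether reads of one gene were counted for the other was not tested.

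TXNRD2, the mitochondrial reductase (chromosome 22, 19875517 to 19941992), was 1.61-fold higher, with a log2 fold change of 0.68 and an adjusted p of 4.05e-09 in the authors' deposited table. It was the only mitochondrial member called higher. TXNRD3, a reductase known mainly from testis, was lower, with a log2 fold change of -0.59 (adjusted p = 0.00171 in the authors' deposited table).

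SRXN1 encodes sulfiredoxin, which repairs peroxiredoxins whose cysteine has been overoxidised (chromosome 20, 646615 to 653370). It was 2.41-fold higher, a log2 fold change of 1.27 with an adjusted p of 0.00304 in the authors' deposited table. SRXN1 and PRDX3 had nearly the same size of change in opposite directions, yet SRXN1 stood at rank 7213 by p-value and PRDX3 at rank 1085. The table gives no standard error, and the source of that gap was not tested. SRXN1 overlaps AL121758.1 on the same strand, a gene model whose log2 fold change of -2.32 did not pass (adjusted p = 0.36 in the authors' deposited table).

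TXN, the cytosolic thioredoxin (chromosome 9, 110243811 to 110256640), had a log2 fold change of 0.08 and did not pass (adjusted p = 0.603 in the authors' deposited table). TXN2, its mitochondrial counterpart (chromosome 22, 36467036 to 36482030), was 1.39-fold lower, with a log2 fold change of -0.47 and an adjusted p of 1.43e-05 in the authors' deposited table. No thioredoxin was called higher in either compartment. TXN has 7 numbered pseudogenes in GENCODE 29, between which and TXN reads may be split, so its value is uncertain.

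All 5 peroxiredoxins among the members had a negative log2 fold change, and 4 of them passed. Of all tested genes, 27.9% were lower and 57.6% passed in one direction or the other. PRDX3, the mitochondrial peroxiredoxin that takes its electrons from TXN2 (chromosome 10, 119167703 to 119178833), was 2.34-fold lower, with a log2 fold change of -1.23 and an adjusted p of 2.2e-27 in the authors' deposited table. Its fold change was above that of only 10.7% of the tested genes. PRDX5 (chromosome 11, 64318088 to 64321811), which reduces peroxides at several sites in the cell, was lower by much less, with a log2 fold change of -0.32 (adjusted p = 0.00449 in the authors' deposited table).

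Cytosolic peroxiredoxins lay closer to no change than PRDX3 did. PRDX2, abundant in red blood cells and brain (chromosome 19, 12796820 to 12801859), had a log2 fold change of -0.32 (adjusted p = 0.00128 in the authors' deposited table). PRDX6, the peroxiredoxin with a single active cysteine, which uses glutathione in place of thioredoxin (chromosome 1, 173477266 to 173488807), had a log2 fold change of -0.21 (adjusted p = 0.0449 in the authors' deposited table). That value lies just under the threshold. PRDX1, a widely expressed cytosolic form (chromosome 1, 45511036 to 45523047), had a log2 fold change of -0.12 and did not pass (adjusted p = 0.262 in the authors' deposited table). GENCODE 29 lists 4 numbered pseudogenes each for PRDX2 and PRDX3 and 1 for PRDX1, so these values are uncertain to the extent that reads were split. An annotated antisense gene, AC018761.2, covers PRDX2, and MMACHC on the opposite strand overlaps PRDX1. Whether the counting used strand is not stated in any source at hand.

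**Figure D2:**
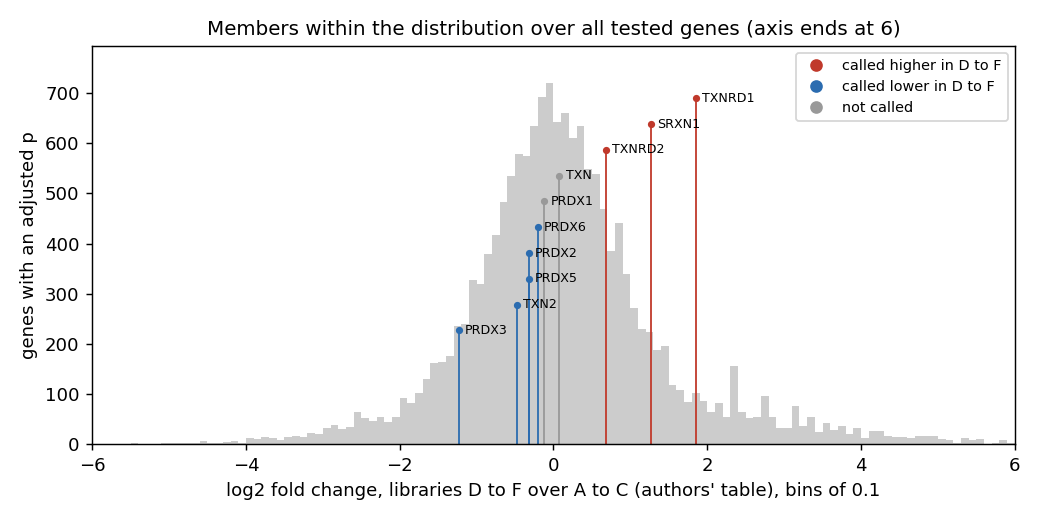
The grey histogram counts genes with an adjusted p by log2 fold change (bins of 0.1, axis ending at 6), and each coloured line places 1 member on the same axis; line height only separates the names. TXNRD1 lies at 1.86 and PRDX3 at -1.23, on the flanks of the distribution, while TXN at 0.08 and PRDX1 at -0.12 lie near its centre.

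Set against each other by role, TXN, TXNRD1, PRDX1, PRDX2 and PRDX6 each had a higher log2 fold change than the mitochondrial member matched to it. PRDX6, which uses glutathione in place of thioredoxin, is matched to PRDX3 only as a peroxiredoxin. PRDX5 (-0.32), found partly in mitochondria, was not matched, and its value was nearly that of PRDX2 (-0.32). TXN minus TXN2 came to 0.55, and TXNRD1 minus TXNRD2 to 1.18. PRDX1, PRDX2 and PRDX6 minus PRDX3 came to 1.11, 0.91 and 1.02, all of which share the single value of PRDX3. These differences between genes were not tested: the table lists no standard errors, and none were derived from its p-values, since the sources at hand do not state whether the fold changes were shrunken. The median log2 fold change was -0.02 over the 6 cytosolic members and -0.47 over the 3 mitochondrial members, a difference of 0.45. With PRDX3 left out the difference was -0.12, so the order of the medians rests on that gene. In the cytosol 2 members were higher, 2 lower and 2 not called. In mitochondria 1 was higher and 2 were lower. The shares over all tested genes were 29.7% higher and 27.9% lower.

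Only TXNRD1, SRXN1 and PRDX3 changed by at least 2-fold as well as passing the adjusted p. Across all tested genes, 12.8% met both conditions in the higher direction and 11.3% in the lower direction, or 24.1% together. The authors' deposited short table repeats the same values, restricted to changes of at least 2-fold. It therefore contains these same 3 members and is not a separate observation.

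A broader list of 19 genes, relatives of thioredoxin together with the thioredoxin-binding protein TXNIP, had 8 members higher and 3 lower, with a median log2 fold change of 0.11. With 57.6% of all tested genes called, the count in both directions together is close to the background. By direction, 29.7% of all tested genes were higher and 27.9% lower, so this list leaned to higher. That lean was not tested. PRDX4, the peroxiredoxin of the endoplasmic reticulum, was higher, with a log2 fold change of 0.26 (adjusted p = 0.0214 in the authors' deposited table), opposite in sign to the 5 peroxiredoxins above. TXNIP, which binds and inhibits thioredoxin, had a log2 fold change of 0.84, and TXNL1, a thioredoxin-like protein bound to the proteasome, one of 0.76; both passed in the authors' deposited table. Among those lower were TXNDC12, a thioredoxin-like protein of the endoplasmic reticulum, at -1.69 and NXN (nucleoredoxin) at -1.10. The glutaredoxins, small glutathione-dependent relatives, were divided: GLRX3 (1.23) and GLRX2 (0.66) were higher, GLRX (-0.79) and GLRX5 (-0.39) were lower, and the glutathione reductase GSR (-0.07) did not pass.

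Of 9 measured genes for proteins that thioredoxin serves, 2 were higher and 3 lower, close to the shares over all tested genes (29.7% higher and 27.9% lower). RRM2, the regulated subunit of ribonucleotide reductase, was higher, with a log2 fold change of 0.83, while its partner RRM1 (-0.12) did not pass. The methionine sulfoxide reductase MSRB1 (-1.06), the redox-active repair enzyme APEX1 (-0.79) and MAP3K5 (-0.77), the kinase ASK1 that reduced thioredoxin holds inactive, were lower in the authors' deposited table.

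The list of 11 mitochondrial redox partners was drawn broadly. It also holds the protease LONP1 and the peptidase genes IMMP1L and IMMP2L, which are not redox enzymes. GPX1 and GPX4 are in it too, though their proteins are not confined to mitochondria. Of the 11 genes, 6 were lower and 3 higher, beside 27.9% lower and 29.7% higher over all tested genes. Their median log2 fold change was -0.23. NNT, the inner membrane transhydrogenase that makes NADPH in the matrix, was 2.16-fold lower, a log2 fold change of -1.11 (adjusted p = 1.06e-32 in the authors' deposited table). IDH2, another source of matrix NADPH, had a log2 fold change of -0.81 (adjusted p = 7.43e-19 in the authors' deposited table). SOD2 (-0.34), GPX4 (-0.37), GLRX5 (-0.39) and the matrix protease LONP1 (-0.23) were lower by less. GLRX2 (0.66), IMMP1L (0.44) and the malic enzyme ME3 (0.38) were higher.

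Of 11 NRF2 reference genes, a list chosen with earlier results of these libraries known, 9 were higher and 1 lower, beside 29.7% and 27.9% of all tested genes, and 1 (ME1) had no usable adjusted p. The 9 higher include NFE2L2, which encodes NRF2 itself, with a log2 fold change of 1.25 (adjusted p = 3.8e-38 in the authors' deposited table). They also include KEAP1 (0.33), which encodes the inhibitor of NRF2, so the 9 are not all targets of NRF2. TXNRD1 (1.86) and SRXN1 (1.27) lay on either side of this list's median of 1.43. PRDX1, PRDX6 and TXN, which NRF2 is also known to induce, had log2 fold changes of -0.12, -0.21 and 0.08. ABCC1, a drug and glutathione conjugate exporter, was the list member lower (-1.20).

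**Figure D3:**
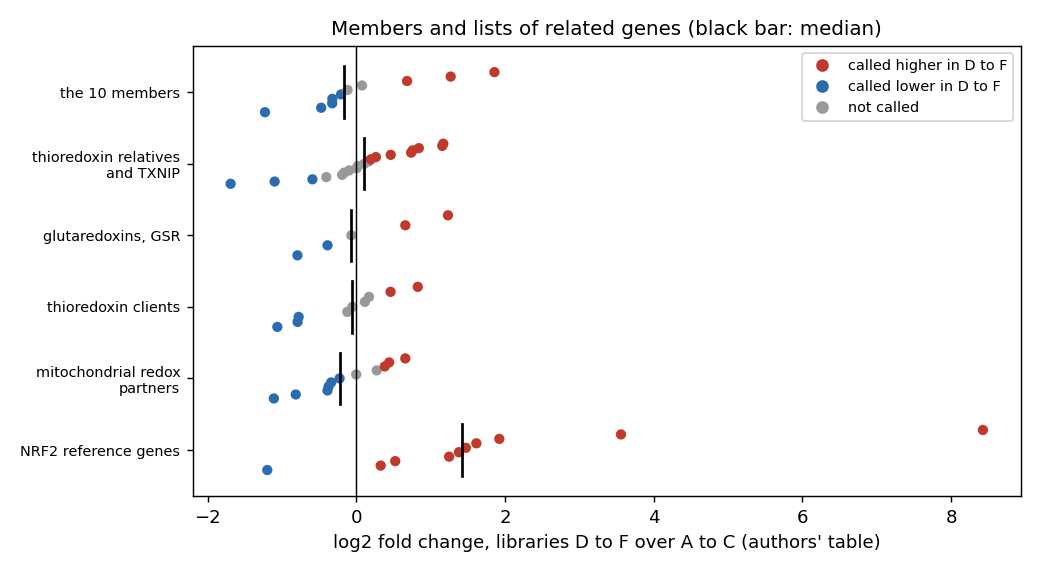
Each point is the log2 fold change of 1 gene, libraries D to F over A to C, in the 10 members and in 5 lists of related genes with an adjusted p; black bars are medians and colours give the call at an adjusted p under 0.05. Most NRF2 reference genes lie to the right, with a median of 1.43, and the median of the members is -0.16.

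RefSeq promoter windows were at hand for 7 of the members and covered 11 annotated starts. In the 250 bases before the start, on both strands, TGACNNNGC was found at both TXNRD1 starts (TGACTTCGC at the upstream start shown above and GCTTTGTCA, the opposite strand, at the other) and at no other member's start. Of all 35116 promoter windows, 10.9% held this motif. The AP-1 motif TGANTCA, held by 6.57% of all windows, matched no member. These motifs were chosen after the fold changes were known, and a match is a description of the letters only.

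The markers of the cell line were checked through the same comparison, since levels were not used. POU2F3, the factor of tuft cell-like small cell lung cancer, was 3.28-fold lower in the authors' deposited table, and 4 of 6 tuft cell-like markers were lower. The tuft cell-like markers ASCL2 (0.33) and TRPM5 (0.78) had positive log2 fold changes and did not pass. All 3 epithelial markers were higher, as were 2 of the 3 neuroendocrine markers with an adjusted p. Beside these counts, 29.7% of all tested genes were higher and 27.9% lower. The leukocyte marker PTPRC (0.19) did not pass, and the fibroblast marker COL1A1 (-0.57) was lower. The other fibroblast marker, COL1A2 (0.89), had no usable adjusted p. The part of a shift in cell state in the changes of the members was not tested.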

How the data were processed

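RNA from 6 samples of H1048 cells, 3 treated with ISP-I and 3 with DMSO, was analysed through 2 tables of the authors' own comparison. Each gene has 1 deposited log2 fold change together with its p-value, raw and adjusted, in columns headed as in DESeq2 output, per the file headers. Trimmomatic, STAR, HTSeq and DESeq2 were used with hg38, per the submitters' processing notes; the sources used here do not give versions, annotation, strand or shrinkage of fold changes. The direction is read from the order in which the authors name the sets.

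A further 36 columns of values per library carry names that no label ties to a sample. They were used for no result, so depth, errors and a count model are not given; the values per library of the members and PRDX4 were, however, displayed once while the files were inspected.

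The 977 genes with an adjusted p of exactly 1 were treated as having none; the remaining 15976 follow a Benjamini-Hochberg adjustment. Calls used an adjusted p under 0.05. Named genes were all members and the genes of fixed lists, with overlapping genes added after their values were seen. Members and lists were chosen with earlier results of these data known. The code for the adjustment and the calls was tested on simulated data with far fewer changed genes than here. That does not test the authors' adjusted p-values. Coordinates and exons are from GENCODE 29, promoters from RefSeq (GRCh38.p14). Python 3.11.15, pandas 2.3.3, numpy 2.4.6 and matplotlib 3.10.9 were used. Alternatives were another adjustment, thresholds, centring and compartment assignments. One overlapping gene is not reported here.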

Additional observations from a re-analysis of the deposited data

How the results depend on the processing

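The counts of 3 members higher and 5 lower were the same with the adjustment made over all rows. They were also the same after subtraction of the all-gene median (0.06) from each log2 fold change. That subtraction kept every adjusted p, and each called change was larger in size than the median, so no call could change. At an adjusted p under 0.01 the members lower were 4, PRDX6 no longer passing, and with at least 2-fold demanded as well the members higher were 2 and those lower 1. Of 30 settings tried on single members, 29 kept the direction and the side of the threshold. Among these, centring could alter only the direction. TXN and PRDX1, which failed the main threshold, could not change at the stricter one. The adjustment over all rows raised each adjusted p only slightly (PRDX6 from 0.0449 to 0.0477), so it had little room to change a call. The difference between the cytosolic and mitochondrial median log2 fold changes (0.45) was 0.38 with PRDX5 counted as mitochondrial, 0.36 with it counted as cytosolic, 0.36 without TXNRD1 or without SRXN1, 0.77 with means, and -0.12 without PRDX3; the last leaves 2 mitochondrial members. No paired analysis was possible because no label ties the library columns to the samples and their replicate numbers; for the same reason tests on counts and leaving out single replicates were not run.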
